A study of Mus musculus with 19 samples.

Results

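The interferon-induced transmembrane (IFITM) genes and the *Ifi27* genes encode small membrane proteins, most of which are induced by interferon. In the table of retinal microglia the members were found by their gene symbols, which gave 7 of 27299 genes: *Ifitm1*, *Ifitm2*, *Ifitm3*, *Ifitm6*, *Ifitm10*, *Ifi27* and *Ifi27l2a*. Bulk RNA-seq had been carried out on retinal microglia 3 days after argon laser burns, which rupture the retinal pigment epithelium and start choroidal neovascularization (CNV d3, n = 6, 6 burns per eye), and on microglia of unlasered control mice (n = 6). The mice of both groups were 8 weeks old. The methods name *Cx3cr1* GFP/+ mice, in which 1 copy of the fractalkine receptor gene is replaced by a fluorescent reporter, and a sort for CD45lo CD11b+ CX3CR1+ Ly6C- Ly6G- cells, while the labels name the strain C57BL/6J and CD45+ cells. Nothing in the labels says which samples came from separate animals, so p-values measure the spread between these samples only.

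IFITM proteins are embedded in the plasma membrane and in the membranes of endosomes and lysosomes, where they hinder the fusion of enveloped viruses with the cell. IFITM3 is the endosomal member that restricts influenza virus, whereas IFITM1 acts mostly at the cell surface. *Ifi27* and *Ifi27l2a* belong to the ISG12 family of small hydrophobic proteins, which have been placed in mitochondria and at the nuclear envelope. Type I interferons signal through the receptor chains IFNAR1 and IFNAR2 and the kinases JAK1 and TYK2 to transcription factors that bind the interferon-stimulated response element (ISRE) in promoters. Interferon gamma acts mainly through another promoter element, the gamma-activated site (GAS). Microglia hold many of these transcripts at a basal level and raise them in infection, ageing and injury.

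The start-site sequences that hold these elements are shown because the changes described below concern interferon-inducible genes. RefSeq promoters on GRCm38.p6, each of 300 bases from 250 before to 50 after a transcript start, were matched for 5 of the 7 members in 7 windows (*Ifitm1*, *Ifitm2*, *Ifitm3*, *Ifitm6* and 3 starts of *Ifitm10*). On either strand, GAAA followed by any 2 bases and GAAA was taken as an ISRE match, and TTC followed by any 3 bases and GAA as a GAS match. In all, 3.44% of 32851 RefSeq windows hold the former and 8.3% the latter. The following stretches of 30 bases, all on the minus strand of chromosome 7, hold the matches, with capitals for the ISRE letters in *Ifitm2* and *Ifitm3* and for the GAS letters in *Ifitm6*.
*Ifitm2* (chr7:140955988-140956017): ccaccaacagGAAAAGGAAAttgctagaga
*Ifitm3* (chr7:141010714-141010743): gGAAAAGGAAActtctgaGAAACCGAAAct
*Ifitm6* (chr7:141016883-141016912): ccatatgaacTTCCTTGAAacaagagcttc
The window of *Ifitm2* has 1 ISRE match, from -46 to -37 before the start. That of *Ifitm3* has 2, from 3 to 12 and from 20 to 29 after it, and a GAS match from 14 to 22 that overlaps the second ISRE match. *Ifitm2* and *Ifitm3* share the run caggaaaaggaaa of 13 bases, which holds an ISRE match in both. In *Ifitm6* the GAS match lies from -10 to -2. No match to these letters lies in the windows of *Ifitm1* and *Ifitm10*. The windows of *Ifitm1* (140967826 to 140968125) and *Ifitm6* (141016843 to 141017142) lie inside these genes as Gencode draws them. Their outermost Gencode starts, at bases 140967221 and 141017924, were not scanned. The matches describe letters and do not show that a factor was bound.

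Values are normalized counts, that is, read counts divided by a size factor per sample. Control samples had 10963178 to 22335233 reads on genes and CNV d3 samples had 23532260 to 29523018, so every control was shallower. A single read was worth 0.739 to 1.99 normalized counts. In 3 of the 6 CNV d3 samples, replicates 4 to 6, the Y-linked gene *Ddx3y* was read at 1239 to 1450 normalized counts, while it had 0 reads in the other CNV d3 samples and in all controls. The labels do not give the sex of the mice. For this reason results are also given for CNV d3 replicates 1 to 3 against the controls, an alternative chosen after seeing the data. Of 12 microglia markers all had reads in every sample, with a summed level of 1505380 to 1666710 normalized counts in control and 847857 to 1257200 in CNV d3. By the test described below 8 of them were lower in CNV d3, against 4.57% of all genes. Of 12 monocyte markers 5 were higher, against 8.29% of all genes. The sum of the 12 was 289 to 1438 in control and 1505 to 5353 in CNV d3. *Ms4a4c* alone had a mean of 411 in control and 1241 in CNV d3. *Ly6c2*, the gene of the monocyte antigen Ly6C, had 0 reads in all controls and 1.73 to 25.1 normalized counts in CNV d3. Of 5 dendritic cell markers 3 were higher, also against 8.29% of all genes, with a sum of 3.38 to 476 in control and 198 to 998 in CNV d3. The part of monocytes or dendritic cells in the results below was not tested. In bulk samples more cells of a type and more RNA per cell cannot be told apart.

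Of these genes 4 rose in CNV d3, 2 fell and 1 did not pass the test. *Ifi27l2a*, *Ifitm3*, *Ifitm2* and *Ifitm1* were the 4 higher ones by limma on log2(normalized counts + 1) with Benjamini-Hochberg adjusted p under 0.05, where 8.29% of all genes were called higher. The same 4 passed the DEG rule of the methods, an additional log2 fold change above 1.5, which 3.91% of all genes did. *Ifi27* and *Ifitm10* were lower, as were 4.57% of all genes. *Ifitm6* was not called. In 3 of the 7, *Ifi27l2a*, *Ifitm2* and *Ifitm1*, all CNV d3 samples lay above all controls, which was so for 4.64% of all genes. All 7 members passed a filter of 10 normalized counts in 6 samples, as did 12753 of all genes. *Ifitm1* passed it through the CNV d3 samples alone. The median log2 fold change of the 7 was 2.52 and that of all genes 0.15. The members were chosen with earlier results of these data known, so setting them beside all genes is a description and no test. Against CNV d3 replicates 1 to 3 alone, 3 members were called higher (*Ifitm1*, *Ifitm2* and *Ifi27l2a*) and 0 lower. In that fit 2 members were lower at an unadjusted limma p under 0.05. Of all 27299 genes it called 1022 higher and 540 lower, fewer than with all samples.

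**Figure D1:**
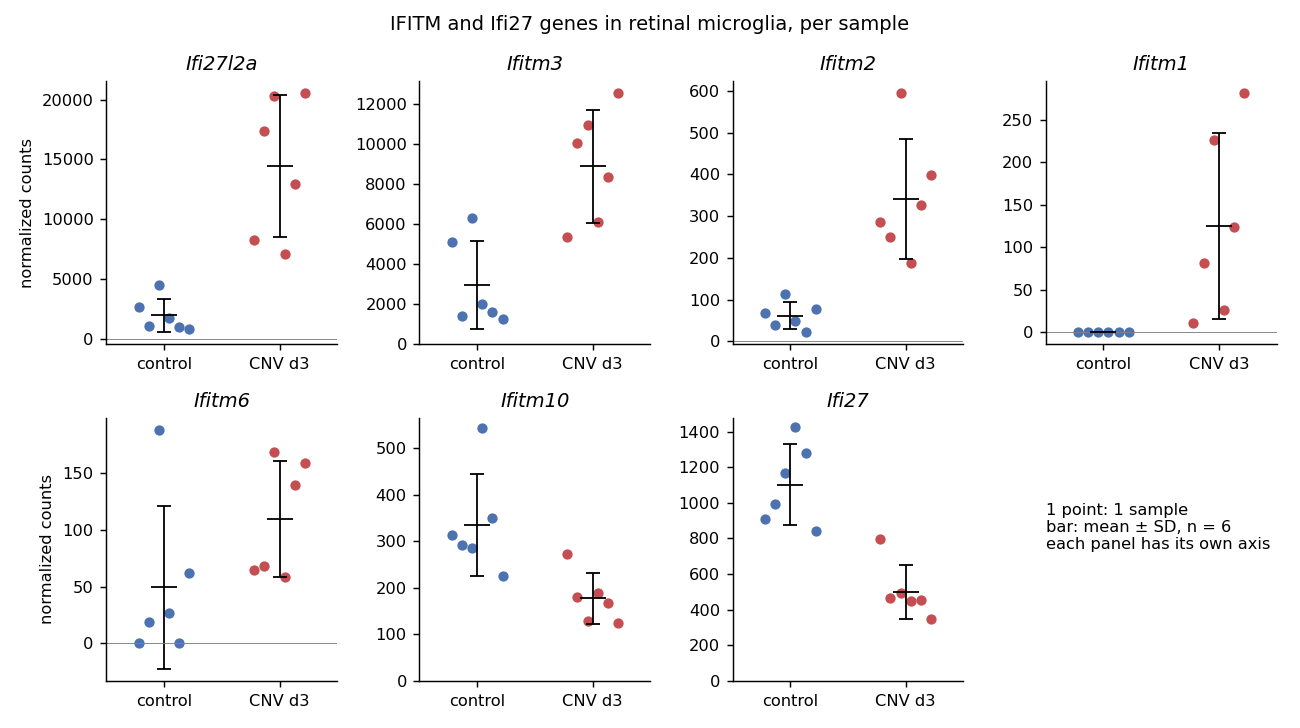
Normalized counts of the 7 genes in each of 6 control (blue) and 6 CNV d3 (red) samples, with mean ± SD and a separate linear axis per gene. The groups are apart for *Ifi27l2a*, *Ifitm2*, *Ifitm1* and *Ifi27*, and overlap for *Ifitm3*, *Ifitm6* and *Ifitm10*.

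*Ifi27l2a*, an ISG12 gene that type I interferon induces, occupies bases 103442167 to 103443680 of chromosome 12 (GRCm38, minus strand). In control it had 806 normalized counts at the lowest, 1452 at the median and 4480 at the highest. In CNV d3 the values were 7108, 15184 and 20546. Thus every CNV d3 sample exceeded every control, and among the controls replicates 3 and 1 were the highest. The mean was 7.32-fold higher in CNV d3, and the log2 fold change was 3.02 (SE 0.39, limma adjusted p = 0.000177; exact permutation p = 0.00216, two-sided, the smallest that 6 against 6 samples allow). With CNV d3 replicates 1 to 3 alone it was 3.13 (limma adjusted p = 0.0213). By mean normalized count the gene went from rank 1912 of the 27299 genes in control to rank 182 in CNV d3.

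*Ifitm3* occupies bases 141009586 to 141010770 of chromosome 7 (minus strand). Control samples had 1253 normalized counts at the lowest, 1799 at the median and 6309 at the highest, and CNV d3 samples had 5338, 9186 and 12535. The controls were uneven, since replicates 1 and 3 had 5117 and 6309 and the other 4 were at or below 2000. For this reason 4 of 6 CNV d3 samples, not all, lay above the highest control. The mean was 3.01-fold higher, from 2949 ± 2188 to 8877 ± 2815 (SD, n = 6), with a log2 fold change of 1.83 (SE 0.38, limma adjusted p = 0.00481, exact permutation p = 0.00649). With CNV d3 replicates 1 to 3 alone the log2 fold change was 1.81, with a limma adjusted p of 0.135. It was therefore not called in that smaller comparison, although its size was nearly the same.

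*Ifitm2*, which encodes an IFITM protein of endosomes and lysosomes, spans bases 140954837 to 140955987 of chromosome 7 (minus strand). Its level was much lower, with 22.1, 58.7 and 115 normalized counts (lowest, median and highest) in control and 187, 306 and 595 in CNV d3. The groups did not overlap, and the mean was 5.50-fold higher in CNV d3. The log2 fold change was 2.52 (SE 0.39, limma adjusted p = 0.00064, exact permutation p = 0.00216). The counts of *Ifitm2* are uncertain, because 48.5% of the stretches of 50 bases in its transcripts occur in transcripts of other genes. Among these are *Gm45717* and *Ifitm3*. In addition, 268 of its 655 exon bases overlap *Gm45717*, which Gencode lists as protein-coding. The counter discards reads that match several places or several genes. For *Ifitm3* 10.02% of these stretches were shared, and for *Ifi27l2a* 0.483%.

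*Ifitm1* had 0 reads in all 6 controls. The gene spans bases 140967221 to 140969825 of chromosome 7 (plus strand). In CNV d3 replicates 1 to 6 it had 11.1, 81.1, 226, 26.0, 123 and 282 normalized counts, the lowest of which stood on 15 reads. Every CNV d3 sample therefore held reads of a gene with none in control, but the level ranged widely among them, with a mean of 125 ± 109 (SD, n = 6). Against 3 reads in the shallowest control, which are 5.96 normalized counts, the mean in CNV d3 was at least 20.97-fold higher. The limma adjusted p was 0.000222 and the exact permutation p was 0.00216. Replicates 1 and 4 were the lowest of the CNV d3 samples for *Ifitm1*, *Ifitm3* and *Ifi27l2a*.

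*Ifitm6* (chromosome 7, bases 141015699 to 141017924, minus strand) was not called. Control samples had 0 reads in replicates 1 and 5 and a median of 22.8 and a highest value of 188 normalized counts. CNV d3 samples had 58.9 at the lowest, 104 at the median and 168 at the highest, so that all held reads and 1 control exceeded all of them. The mean was 2.23-fold that of control. The log2 fold change of 2.87 (SE 1.15, limma adjusted p = 0.124, exact permutation p = 0.0519) was 1.17 by edgeR and 1.16 by DESeq2, neither of which called the gene.

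**Figure D2:**
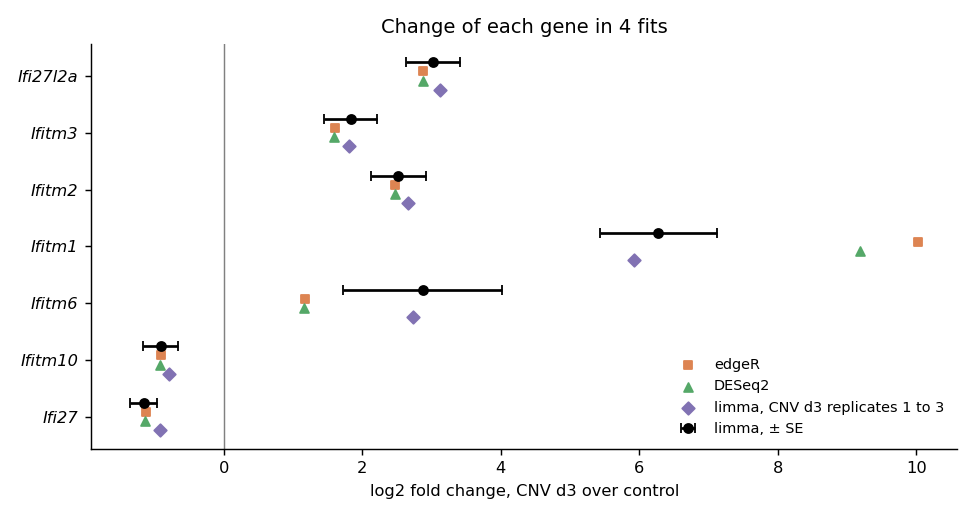
Log2 fold change of CNV d3 over control for each gene by limma with all samples (± SE), by edgeR and DESeq2 on the recovered reads, and by limma with CNV d3 replicates 1 to 3 alone. The 4 fits lie close together except for *Ifitm1*, with 0 reads in control, and *Ifitm6*, with 0 reads in 2 controls, where a fitted value depends on how 0 is treated.

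*Ifi27*, the ISG12 gene next to *Ifi27l2a*, went the other way. It occupies bases 103434211 to 103440239 of chromosome 12 (plus strand). In control it had 840, 1080 and 1424 normalized counts (lowest, median and highest), and in CNV d3 it had 348, 462 and 794. All CNV d3 samples were below all controls, as in 2.83% of all genes. The log2 fold change was -1.16 (SE 0.19, limma adjusted p = 0.00111, exact permutation p = 0.00216). CNV d3 replicate 1, at 794, stood apart from the other 5, which had 494 or less. Replicates 4 to 6, those with *Ddx3y* reads, had 348 to 456 and replicates 1 to 3 had 468 to 794. With the latter alone the log2 fold change was -0.93 and the limma adjusted p 0.0568.

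*Ifitm10*, which lies farthest from the other IFITM members, spans bases 142325837 to 142373753 of chromosome 7 (minus strand). The normalized counts were 224, 302 and 544 (lowest, median and highest) in control and 124, 174 and 273 in CNV d3. Of the 6 CNV d3 samples 5 lay below the lowest control, and replicate 1 did not. The log2 fold change was -0.91 (SE 0.25, limma adjusted p = 0.0276, exact permutation p = 0.00433). This call was the least stable of the 6. It was lost with edgeR (adjusted p = 0.0519), without CNV d3 replicate 3 (limma adjusted p = 0.0603), 5 (0.0518) or 6 (0.0603), and with CNV d3 replicates 1 to 3 alone (-0.79, limma adjusted p = 0.209).

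The order of the levels was read per kilobase of exon. The whole exon length was used, without correction for shared stretches, whose reads the counter discards. Of the stretches of 50 bases 48.5% were shared for *Ifitm2*, 10.02% for *Ifitm3* and 0% for *Ifi27*. The level of *Ifitm2* may therefore be understated beside the others, and its place in the order is uncertain. In control *Ifitm3* had 4350 ± 3226 normalized counts per kilobase (SD, n = 6) and *Ifi27l2a* 4259 ± 3024. These overlapped fully, each being above the other in 3 samples. *Ifi27* followed with 751 ± 155, below both in all 6 samples. *Ifitm2* with 94.5 ± 49.8, *Ifitm10* with 69.9 ± 23.0 and *Ifitm6* with 54.4 ± 79.2 were not apart from each other, and *Ifitm1* was at 0. In CNV d3 *Ifi27l2a* led with 31174 ± 12750 and exceeded *Ifitm3*, at 13093 ± 4152, in all 6 samples. *Ifitm2* with 520 ± 219 and *Ifi27* with 342 ± 104 overlapped, and so did *Ifitm6* with 121 ± 56.6 and *Ifitm1* with 114 ± 99.7. *Ifitm10* had the lowest mean, 37.0 ± 11.3, but overlapped *Ifitm1*, which was above it in 4 of 6 samples. *Ifitm3* made up a median of 94.5% of the summed level per kilobase of the 5 IFITM members in control and 94.2% in CNV d3. As counted, with *Ifitm2* possibly understated, the family was nearly all *Ifitm3* in both groups.

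Whether 2 members changed by the same factor was asked with their ratio within each sample, which is free of the size factor. The log2 ratio of *Ifi27l2a* to *Ifitm3* was -0.54 ± 0.28 (SD, n = 6) in control, from -0.95 to -0.17, and 0.65 ± 0.23 in CNV d3, from 0.23 to 0.89. The shift of 1.19 separated all samples (exact permutation p = 0.00216, 0.00325 adjusted over 3 pairs), so *Ifi27l2a* rose more than *Ifitm3*. The log2 ratio of *Ifi27l2a* to *Ifi27* went from 0.59 ± 0.93 to 4.77 ± 0.93, a shift of 4.18 with the same exact p. That of *Ifitm3* to *Ifitm2* was 5.42 ± 0.82 in control and 4.73 ± 0.46 in CNV d3, a shift of -0.69 that did not pass (exact permutation p = 0.108). Without control replicate 6 the latter shift was -0.97 (exact permutation, adjusted p = 0.0108). With CNV d3 replicates 1 to 3 alone the 3 shifts were 1.32, 4.06 and -0.84.

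**Figure D3:**
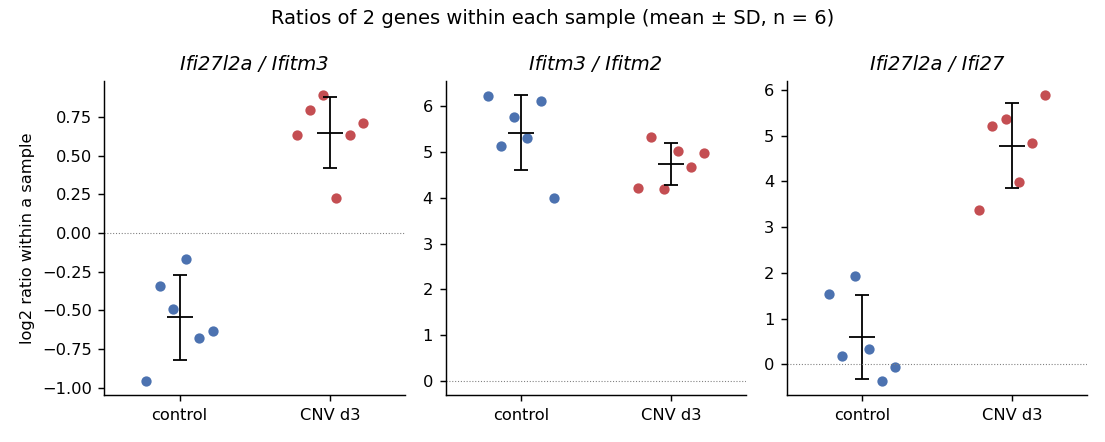
Log2 ratio of 2 genes within each of 6 control (blue) and 6 CNV d3 (red) samples, with mean ± SD. All CNV d3 samples lie above 0 for *Ifi27l2a* to *Ifitm3* and all controls below 0, the ratio of *Ifi27l2a* to *Ifi27* does not overlap between groups, and that of *Ifitm3* to *Ifitm2* does.

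Within the 6 CNV d3 samples *Ifi27l2a* varied with *Ifitm3*. Pearson's r was 0.97 (exact permutation p = 0.00694, 0.0417 adjusted over 30 relations) and Spearman's rho 0.94 (p = 0.0167 by exact permutation, 0.0833 adjusted). With the 2 samples of most extreme *Ifitm3* level removed, r was 0.95. In the 6 controls r was 0.96 (exact permutation p = 0.00278, adjusted 0.0417) and rho 0.94 (exact permutation p = 0.0167, adjusted 0.0833). Replicates 1 and 3 were the highest controls for both genes, and without these 2 samples r was 0.92. Of 15 relations in control, this was the only 1 whose r passed. *Ifitm3* also followed the mean log2 level of 30 type I interferon-stimulated genes in CNV d3, with r = 0.92 (exact permutation p = 0.00139, adjusted 0.0417), rho = 1.0 (exact permutation p = 0.00278, adjusted 0.0833) and r = 0.84 with the 2 most extreme samples removed. In CNV d3 the relations of *Ifi27l2a* (r = 0.80), *Ifitm6* (0.72) and *Ifitm2* (0.52) with these genes did not pass (exact permutation, adjusted p = 0.142, 0.219 and 0.390). In control r was 0.90 for *Ifitm3* and 0.81 for *Ifi27l2a* (exact permutation, adjusted p = 0.142 and 0.144). With the 2 most extreme samples removed these became -0.48 and -0.33. For *Ifitm2* and *Ifitm6* the control r was 0.56 and 0.0084.

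In CNV d3 the relation to monocyte markers was of similar size. With the mean log2 level of the 12 monocyte markers, *Ifi27l2a* had r = 0.93 (exact permutation p = 0.00417, adjusted 0.0417) and rho = 0.94 (exact permutation p = 0.0167, adjusted 0.0833). *Ifitm6* had r = 0.86 (exact permutation p = 0.00556, adjusted 0.0417) and the same rho. With the 2 samples of most extreme marker level removed, r was 0.88 and 0.87. The r values of *Ifitm3* and *Ifitm2* were 0.86 and 0.84, and their adjusted p missed the threshold (exact permutation, 0.132 and 0.142). In control r with the monocyte markers was 0.51 for *Ifi27l2a*, 0.27 for *Ifitm6*, 0.64 for *Ifitm3* and 0.83 for *Ifitm2*. None of these passed (exact permutation, lowest adjusted p = 0.142). For endothelial markers r was 0.31 to 0.68 in CNV d3, and the lowest adjusted p of these exact permutation tests was 0.267. Of the 9 endothelial markers measured, whose sum was 521 to 990 normalized counts in control and 480 to 970 in CNV d3, *Kdr* was higher (mean 315 in control and 595 in CNV d3) and *Pecam1* lower (392 and 138), and *Ly6c1* and *Esam* were at 0 in all controls.

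**Figure D4:**
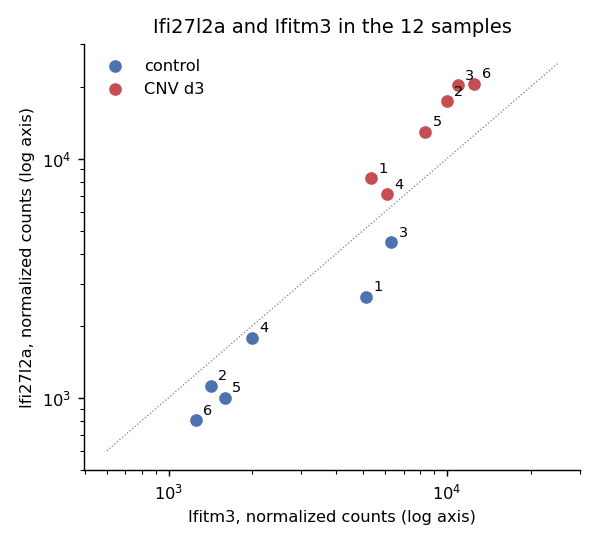
*Ifi27l2a* against *Ifitm3* in normalized counts on log axes, numbered by replicate, for control (blue) and CNV d3 (red), with a dotted line of equal values. The samples of each group rise together, all controls lie below the line and all CNV d3 samples above it. In *Ifitm3* control replicate 3 exceeds CNV d3 replicates 1 and 4, and control replicate 1 lies below both.

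The genes most like the leading pair were sought among 9713 genes with a mean of at least 100 normalized counts, by Pearson's r of the deviations from the group means over 12 samples. This is a description, because both genes come from the same libraries, and control replicates 1 and 3, which stand apart, enter it. *Ifitm3* was most like *Shisa5* (r = 0.98), *Parp12* (0.97), *Slfn5* (0.97), *Bst2* (0.97), which encodes the antiviral protein tetherin, and *Xaf1* (0.96). Nearest to *Ifi27l2a* were the ribosomal protein gene *Rpl37* (0.96), then *Ifitm3* (0.95), *Rps16* (0.95), the MHC class I gene *H2-T22* (0.95) and the immunoproteasome gene *Psmb9* (0.95). Within the 6 CNV d3 samples alone, r with these genes was 0.87 to 0.97 for *Ifitm3* and 0.91 to 0.97 for *Ifi27l2a*. *Ifi27l2a* was in place 9 for *Ifitm3*. *Ifitm2* came only in place 654 for *Ifitm3* (r = 0.61) and in place 537 for *Ifi27l2a* (0.66).

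The genes lie in 2 clusters. *Ifitm5*, *Ifitm2*, *Ifitm1*, *Ifitm3* and *Ifitm6* fill 69.0 kilobases from the first start to the last end of chromosome 7 in that order, with gaps of 4.55, 11.2, 39.8 and 4.93 kilobases. *Ifitm10* is 1308 kilobases farther on the same chromosome. *Ifi27* and *Ifi27l2a* are 1.93 kilobases apart on opposite strands, and *Ifi27l2b* is 7.22 kilobases beyond. The paralogs outside the members were hardly read: *Ifitm5* had 0 to 5.37 normalized counts in control and 0 to 1.79 in CNV d3, *Ifitm7* had 0 to 2.68 and *Ifi27l2b* 0 to 0.895 in CNV d3, and both had 0 reads in control. Neither limma, edgeR nor DESeq2 called any of these 3, and 0 had an unadjusted limma p under 0.05. Of 12 flanking genes within 50 kilobases 9 had values, and 0 of them were called by limma, edgeR or DESeq2, with 1 at an unadjusted limma p under 0.05. Of all genes limma called 8.29% higher and 4.57% lower, and several flanking genes were near 0 in both groups. A count of 0 among 9 therefore does not set the flanks apart from other genes. The nearest ones with a level of note, *Pgghg* at 132 and 217 normalized counts in control and CNV d3 and *Ddx24* at 3092 and 3158, had limma adjusted p of 0.184 and 0.873.

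**Figure D5:**
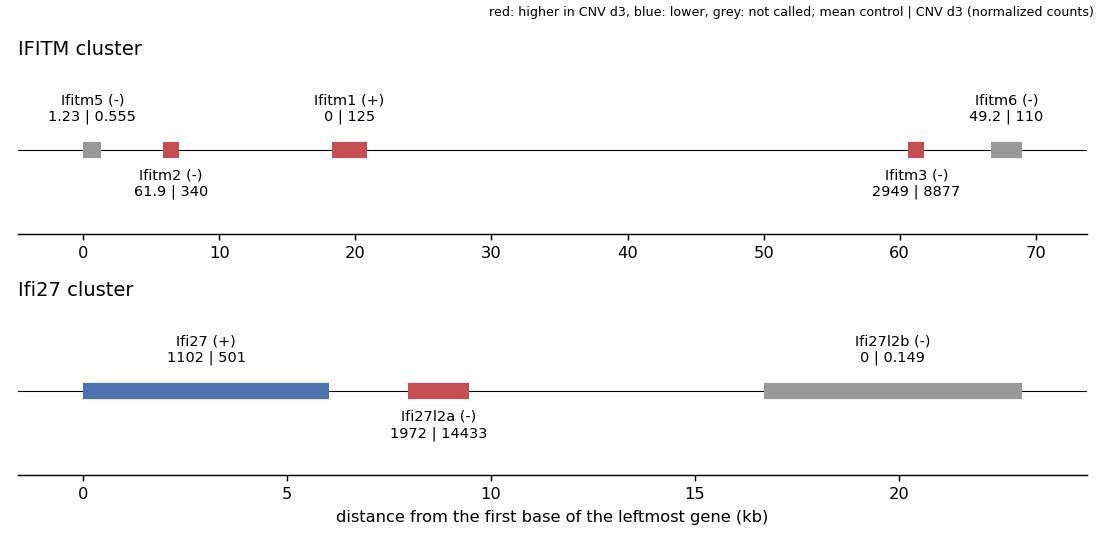
Order, strand and length of the family genes in both clusters, by distance in kilobases from the leftmost gene, with mean normalized counts in control and CNV d3. Called genes (red, higher; blue, lower) stand beside genes that were not called (grey), and *Ifi27* and *Ifi27l2a*, which moved in opposite directions, are neighbours.

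Beside these members, 22 of 30 type I interferon-stimulated genes were higher and 0 lower by limma, against 8.29% of all genes called higher, and their median log2 fold change was 1.20. The 3 of highest mean were *Lgals3bp*, a secreted glycoprotein gene (17729 ± 6639 to 31927 ± 3685 normalized counts, SD, n = 6), *Ifit2*, whose product binds foreign RNA (2901 ± 1614 to 7148 ± 2006), and *Oasl2* (2760 ± 2106 to 6226 ± 1963). Their log2 fold changes were 0.92, 1.44 and 1.42. Other genes of the list, named after their values were seen, had larger log2 fold changes. Among them *Ifi44* (4.70) and *Mx1* (3.38) were above the 3.02 of *Ifi27l2a*, and *Oas3* (2.67) and *Zbp1* (2.35) above the 1.83 of *Ifitm3*. Where controls are near 0 such values depend on the pseudocount. *Ifi44* had reads in 3 of 6 controls, and the lowest controls of *Mx1* and *Oas3* had 9.03 and 1.99 normalized counts. The means of *Mx1* were 139 in control and 898 in CNV d3. The count of genes called higher was 21 with edgeR and 22 with DESeq2, but it depended on single samples. Without control replicate 2, 4, 5 or 6 it was 10 to 13. It was 12 without CNV d3 replicate 2, 4 or 5, and 8 without CNV d3 replicate 3 or 6. With a covariate for *Ddx3y* reads it was 5, and with CNV d3 replicates 1 to 3 alone it was 0. In the latter fit 15 had an unadjusted limma p under 0.05 and all 30 had a positive log2 fold change. As no control had *Ddx3y* reads, the covariate fit gives the same log2 fold changes as replicates 1 to 3 alone. It cannot compare samples with these reads between the groups.

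Of 18 interferon gamma target genes measured, 7 were higher and 0 lower, again against 8.29%. The 3 of highest mean level among them were the peptide transporter gene *Tap1* (log2 fold change 0.85), *Psmb9* (0.50) and the GTPase gene *Gbp2* (2.03). The largest log2 fold changes, of genes named after their values were seen, were those of *Ciita* (5.44) and *Gbp4* (5.10). Both genes had reads in 2 of 6 controls only, so these values depend on the pseudocount. Their means in control and CNV d3 were 1.67 and 192 (*Ciita*) and 32.6 and 178 (*Gbp4*), and the groups overlapped for both. With CNV d3 replicates 1 to 3 alone 2 of the 18 genes were called higher. Of 14 genes of interferon receptors and signalling 5 were higher, *Ifnar1*, *Jak2*, *Tyk2*, *Stat2* and *Irf7*, against 8.29% of all genes, and 2 were lower, against 4.57%, the receptor chain genes *Ifngr1* (-0.48) and *Ifnar2* (-0.38). *Irf7*, the transcription factor that amplifies type I interferon production, went from 1738 ± 1157 to 5459 ± 1552 normalized counts (SD, n = 6; log2 fold change 1.82, limma adjusted p = 0.00193). These counts rest on few samples too, with 3 higher without CNV d3 replicate 4 or 5, 2 without replicate 6, and 0 higher and 0 lower with replicates 1 to 3 alone, where 5 and 2 had an unadjusted limma p under 0.05. The lower call of both receptor chains was lost without control replicate 4 or 6 or CNV d3 replicate 3, 5 or 6, and 1 was left without control replicate 2 or 5 or CNV d3 replicate 2.

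Of the interferon genes themselves 3 were measured. *Ifnb1* had reads in 2 controls, with 446 normalized counts at the highest, and in 5 CNV d3 samples, with 23.6 at the highest. *Ifnk* and *Ifnl2* had reads in 1 sample each. None of these 3 was called by limma, edgeR or DESeq2, and 0 had an unadjusted limma p under 0.05. Other interferon genes were not analysed here. Among 6 genes of enzymes and partners that act on IFITM3 protein, *Zdhhc20*, whose product palmitoylates IFITM3, fell from 5062 ± 569 to 3198 ± 113 normalized counts (SD, n = 6; log2 fold change -0.66, limma adjusted p = 0.000213), and the other 5 were not called. The groups did not overlap for *Zdhhc20*, as in the 2.83% of all genes that were lower in every CNV d3 sample.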

How the data were processed

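Bulk RNA-seq of retinal microglia in 6 control and 6 CNV d3 samples was used. The labels list 19 entries, because all controls and CNV d3 replicate 4 come in 2 parts, which the authors merged and which count as 1 sample each. The authors mapped reads with STAR 2.7.2b to GRCm38 with Gencode M25, counted them with featureCounts 1.6.4 at default settings, which ignore strand and drop reads of several places or genes, and removed genes without reads. The deposited signal of each sample is its read count divided by a DESeq2 size factor (DESeq2 1.22.2). Columns of group means, fold changes and adjusted p-values by the authors were also deposited and not used.

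Genes were compared with limma 3.58.1 in R 4.3.3 (trend) on log2(normalized counts + 1). All 27299 genes entered, p-values were adjusted by the Benjamini-Hochberg method, and genes were called at an adjusted p under 0.05. Fold changes are on this scale, on which those of low genes depend on the pseudocount and on samples at 0. In every sample 100% of values were whole multiples of the value of 1 read within 0.01 reads, so reads were recovered for edgeR 4.0.16 (1952 genes higher and 1181 lower) and DESeq2 1.42.0 (2493 and 2170). In control replicate 5 the value of 1 read is close to 1, which makes that recovery less certain. Single members were compared by two-sided exact permutation over 924 labellings, and relations by all 720 pairings. The tools were tested on simulated data. The smallest signal was set at 3 reads, which covers counting error only, since reads were amplified without molecular identifiers.

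Positions came from Gencode M21 on GRCm38, matched for 27238 genes by Ensembl identifier, promoters from RefSeq on GRCm38.p6. Values per kilobase used the union of exons. All 7 members were named, the 3 called genes of highest mean of each pathway list, the 5 genes most like *Ifi27l2a* and *Ifitm3*, and markers set beside a result. *Ifnar1*, *Jak2*, *Tyk2*, *Stat2*, *Ifi44*, *Mx1*, *Oas3*, *Zbp1*, *Ciita*, *Gbp4*, the flanking genes and *Ddx3y* were named after their values were seen. The members and lists were chosen with earlier results of these data known. Genes of the lists without a row were not analysed here. The alternatives were other pseudocounts, a filter, other scalings, edgeR, DESeq2, the replicate number as a block and leaving out each sample, and, added after seeing the data, leaving out libraries with *Ddx3y* reads or a covariate for them.

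The other cell types with marker lists were checked too. Of all genes limma called 8.29% higher and 4.57% lower. The summed normalized counts were 0 to 26.4 in control and 0 to 9.84 in CNV d3 for neutrophils, 1.00 to 20.4 and 103 to 406 for pericytes and smooth muscle (*Cspg4* called), 6803 to 9780 and 5168 to 7561 for Mueller cells and astrocytes (*Dkk3* higher, *Slc1a3* lower), 791 to 7131 and 594 to 12888 for photoreceptors, 2.15 to 264 and 61.5 to 296 for pigment epithelium, 0 to 4.29 and 0 to 30.9 for T and NK cells, 3.38 to 476 and 198 to 998 for dendritic cells (3 of 5 higher), and 175 to 2517 and 571 to 958 for border macrophages (*Cbr2* and *Folr2* higher).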

Additional observations from a re-analysis of the deposited data

Results flagged for a closer look

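In 14 groups of 6 samples, that is 7 genes in control and in CNV d3, the gap of the extreme sample to its nearest neighbour was compared with the whole range of the group, and 2 groups passed Dixon's 95% critical value. Chance alone passes about 5% of groups. *Ifitm6* in control replicate 3 was at 188 normalized counts, with the next control at 61.6 (gap over range 0.673). That sample was also the highest control for *Ifitm2*, *Ifitm3* and *Ifi27l2a*. *Ifi27* in CNV d3 replicate 1 was at 794 normalized counts, with the next at 494 (gap over range 0.673). That sample had the highest *Ifitm10* and the lowest *Ifitm1* and *Ifitm3* of the CNV d3 samples.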

How the results depend on the processing

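With edgeR, 1 member was called lower in place of 2, since *Ifitm10* was lost. With a covariate for *Ddx3y* reads it was 1 and with the CNV d3 libraries without *Ddx3y* reads alone 0. These 2 fits give the same log2 fold changes, because no control had *Ddx3y* reads. With any single sample left out, 1 to 2 members were called lower and 4 higher, also by the stricter rule. The shift of the log2 ratio of *Ifitm3* to *Ifitm2* ranged from -0.97 to -0.53 then, and the former value, without control replicate 6, passed (exact permutation, adjusted p = 0.0108). The shift of *Ifi27l2a* to *Ifitm3* ranged from 1.11 to 1.28 and that of *Ifi27l2a* to *Ifi27* from 3.96 to 4.46. The r of *Ifitm6* with type I interferon-stimulated genes in control was 0.0084 and -0.028 with a pseudocount of 0.5, both without a call. *Ifitm1*, *Ifitm2*, *Ifitm3*, *Ifi27* and *Ifi27l2a* kept their call under the other pseudocounts, filter, scalings, edgeR, DESeq2 and the block, and in all 12 fits without a sample, but *Ifitm3* and *Ifi27* lost it with the CNV d3 libraries without *Ddx3y* reads alone. With a replicate block the same 4 members were called higher and 2 lower, and the ratio of *Ifi27l2a* to *Ifitm3* shifted by 1.19 (exact sign-flip test, adjusted p = 0.0469). The numbers share no pairing in the labels, same-numbered samples had correlations of -0.0115 to 0.0456, and 1 of 6 controls correlated best with the CNV d3 sample of its own number. Over all genes, the block lowered the calls from 2264 higher and 1247 lower to 1885 and 975, the CNV d3 libraries without *Ddx3y* reads alone gave 1022 and 540, the covariate gave 1340 and 731, and DESeq2 gave 2493 and 2170, of which 53.5% were higher against 64.5% with limma. The depth limits *Ifitm1*, *Ifitm6* and the paralogs, for which 3 reads in the shallowest control are 5.96 normalized counts.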
